A study of Mus musculus with 12 samples.

Results

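The ligands of the tumor necrosis factor (TNF) family were followed in CD4 single positive (SP) thymocytes over the 4 subsets SP1, SP2, SP3 and SP4. The members were 9 genes chosen by name, Tnfsf8, Tnfsf10, Tnfsf11, Tnfsf14, Cd40lg, Fasl, Lta, Ltb and Tnf. They were read by every probe set that the array annotation gives to 1 of these symbols alone, which came to 14 of 45037 probe sets and to 9 of 18193 genes. In SP4 against SP1, Tnfsf8 rose on its single probe set, and Tnfsf14 on its probe set of highest mean but not on its other one. Tnfsf10 rose on 1 of its 3 probe sets, which was not the one of highest mean. Fasl and Ltb rose and Tnfsf11 fell only once the replicate number was in the model, and no probe set of Cd40lg, Lta or Tnf passed the test.

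Each subset was prepared independently 3 times from pooled thymi of C57BL/6 mice 6 to 8 weeks old. Before the sort, CD8+ cells were removed with an anti-CD8 antibody and complement, and dead cells by density centrifugation. The sorted cells were not cultured, and the total RNA of each subset was hybridized to 3 Affymetrix Mouse Genome 430 2.0 arrays, 12 arrays in all. All cells were CD4+CD8-CD25-NK1.1-, and the sort gates were Qa-2-6C10+CD69+ for SP1, Qa-2-6C10-CD69+ for the next subset, SP2, Qa-2-6C10-CD69- for the third, SP3, and Qa-2+6C10-CD69- for the last, SP4. The sort used for the arrays had no CD44 gate, so that activated T cells returning to the thymus were not removed from SP4. A whole sorted population was measured, so fewer cells making a transcript and less transcript per cell cannot be told apart in any value given here.

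TNF family ligands are mostly trimeric membrane proteins that T cells show to neighbouring cells, where they engage receptors of the TNF receptor family and drive NF-kB signalling or, through death domains, apoptosis. In the thymic medulla, RANKL (Tnfsf11), CD40 ligand (Cd40lg) and lymphotoxin (Lta and Ltb) from positively selected thymocytes are known to support the growth and maturation of medullary epithelial cells. In mature CD4 T cells many of these genes are induced through the T cell receptor by way of calcineurin and the transcription factor NFAT.

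The start regions of 5 members are shown: Tnfsf8, Fasl and Ltb, which were highest in SP4, Tnfsf11, which was lowest in SP3 and SP4, and Tnf, which passed no test. Those of Tnfsf10, Tnfsf14 and Lta were searched but are not shown, and no expression result rests on these sequences. Each line gives the 250 bases before the start of the gene, 5′ to 3′ on the strand of the gene, from RefSeq on GRCm38.p6. RefSeq promoter entries were matched for 8 of the 9 members, all but Cd40lg. Capitals mark GGAAA, the core that NFAT proteins bind, or its reverse complement TTTCC.
Tnfsf8, chr4:63861285-63861534, minus strand: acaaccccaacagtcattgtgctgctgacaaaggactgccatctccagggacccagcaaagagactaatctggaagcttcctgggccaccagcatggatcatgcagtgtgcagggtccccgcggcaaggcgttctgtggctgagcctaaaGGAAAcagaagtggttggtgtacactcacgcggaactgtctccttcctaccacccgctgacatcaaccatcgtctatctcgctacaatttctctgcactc
Fasl, chr1:161788496-161788745, minus strand: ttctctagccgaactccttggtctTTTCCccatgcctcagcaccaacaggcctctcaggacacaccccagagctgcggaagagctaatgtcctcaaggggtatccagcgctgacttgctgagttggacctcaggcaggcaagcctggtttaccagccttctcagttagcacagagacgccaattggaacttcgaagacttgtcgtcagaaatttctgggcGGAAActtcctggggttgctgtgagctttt
Ltb, chr17:35194257-35194506, plus strand: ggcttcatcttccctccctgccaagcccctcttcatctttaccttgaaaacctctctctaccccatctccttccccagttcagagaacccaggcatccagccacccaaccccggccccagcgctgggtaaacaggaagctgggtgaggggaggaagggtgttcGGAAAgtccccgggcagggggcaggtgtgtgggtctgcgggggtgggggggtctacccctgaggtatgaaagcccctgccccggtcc
Tnfsf11, chr14:78308044-78308293, minus strand: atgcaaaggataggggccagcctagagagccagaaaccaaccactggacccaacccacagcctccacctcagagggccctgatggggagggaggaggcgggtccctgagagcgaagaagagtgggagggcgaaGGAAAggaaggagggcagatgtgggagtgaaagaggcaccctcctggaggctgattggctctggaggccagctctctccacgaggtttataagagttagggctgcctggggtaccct
Tnf, chr17:35202008-35202257, minus strand: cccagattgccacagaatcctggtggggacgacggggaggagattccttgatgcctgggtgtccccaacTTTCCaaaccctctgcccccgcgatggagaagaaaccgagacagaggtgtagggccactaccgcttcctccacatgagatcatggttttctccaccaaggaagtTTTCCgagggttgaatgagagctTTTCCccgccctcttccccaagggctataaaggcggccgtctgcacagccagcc

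GGAAA on either strand was found in 55.6% of 32851 mouse promoter windows of this length, so that a match says little by itself. The Tnfsf8 window held 1 match, 100 bases before the start, and the Tnfsf11 window 1, 117 bases before the start. The Fasl window held 2 matches, 226 and 30 bases before the start. In the Tnf window, whose transcript passed no test, 3 matches lay 181, 77 and 54 bases before the start. The Tnfsf14 window, not shown, also held 3 matches, 214, 145 and 57 bases before the start. The windows of Lta and Tnfsf10, not shown either, held 2 and 1. The AP-1 motif TGANTCA, on either strand, was in 6.75% of windows and among the 8 matched members only in that of Tnfsf14, 160 bases before the start. GGAAANNCC, 1 form of the kappaB motif that contains GGAAA, was in 4.93% of windows. Among the 8 matched members it was only in that of Ltb, 87 bases before the start, and other forms were not searched. These are matches of letters and not measured sites.

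Array medians lay between 30.5 and 32.8 units of intensity, the deposited linear value, for which no detection calls were used. Arrays of replicate 3 stood apart from the rest: their deviations from the subset means correlated between -0.812 and -0.388 with those of replicates 1 and 2, while arrays that share a number correlated between 0.279 and 0.883. Replicates 1 and 2 also correlated with each other, between 0.178 and 0.729, so the numbers mainly set replicate 3 apart. The arrays were taken as paired by number, and each result below is given with limma without the replicate number and, where that changes the call, with it as a block. A probe set was called at an adjusted p under 0.05 after Benjamini-Hochberg adjustment over all probe sets, at any fold. Log2 fold changes are later over earlier subset on the scale log2(intensity + 16), which understates the change of dim probe sets. The 8 measured genes of T cell identity, among them Cd3d, Cd4 and Zbtb7b, summed to between 15471 and 18955 on the 12 arrays and none passed the test between SP4 and SP1. Cd8a, whose protein the sort excluded, still averaged 635 ± 526 in SP1 and 130 ± 125 in SP2, then 938 ± 879 in SP3 and 207 ± 174 in SP4 (SD over 3 arrays each).

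Across the whole maturation sequence, SP4 against SP1, 3 of the 14 ligand probe sets passed the test without the block, all higher in SP4, where 0.862% of all probe sets were called higher and 0.22% lower. With the replicate block 8 of 14 passed, 7 higher and 1 lower, against 3.39% and 1.77% of all probe sets. By gene, 5 ligands had a higher called probe set of highest mean with the block, Tnfsf8, Tnfsf10, Tnfsf14, Fasl and Ltb, and Tnfsf11 a lower one. Without the block the count of 3 was 1 on leaving out any SP1 or SP4 array or all arrays of replicate 3, and 0 without replicate 1 or replicate 2. With it the count of 8 was 5 without replicate 1 of SP1, 2 without all arrays of replicate 1 and 3 without those of replicate 3. The median log2 fold change of the 9 ligands, each by its probe set of highest mean, was 0.54 with 6 of 9 above 0, beside -0.01 over all probe sets.

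**Figure D1:**
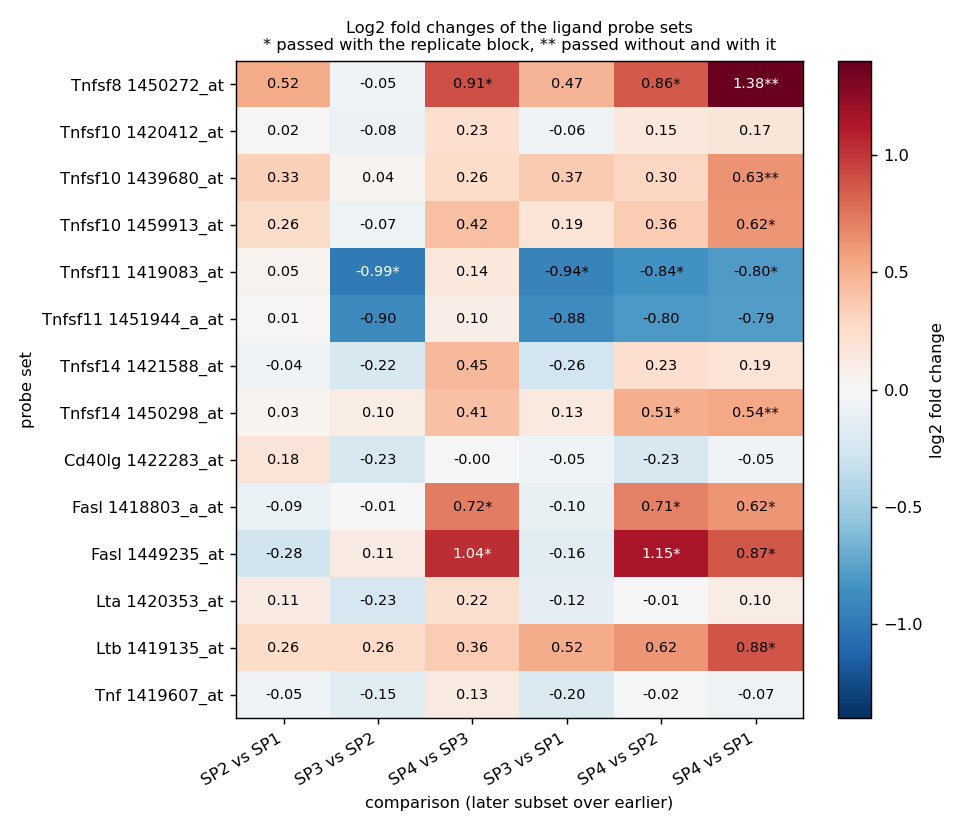
Log2 fold changes of the 14 ligand probe sets (down) in the 6 comparisons between subsets (across), later over earlier subset, with red for higher and blue for lower. Double stars, in the SP4 vs SP1 column alone, mark the 3 calls made without and with the replicate block, and single stars the calls made only with it.

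The stepwise comparisons gave fewer calls. Between SP2 and SP1 no ligand probe set passed without the block (0% of all probe sets) or with it (0.00888%). At an unadjusted p under 0.05 stood 2 of 14 by either fit, beside 1237 of all 45037 probe sets without the block. Between SP3 and SP2, 1 of 14 ligand probe sets and 1359 of all 45037 had an unadjusted p under 0.05 without the block. No ligand passed without the block (0% of all probe sets) and 1 passed with it, lower in SP3, against 0.131% of all probe sets. Tnfsf11 was that ligand.

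Between SP4 and SP3, 4 of 14 ligand probe sets and 2143 of all 45037 had an unadjusted p under 0.05 without the block. No ligand passed without the block (0.16% of all probe sets called) and 3 passed with it, higher in SP4, against 0.897% of all. These were Tnfsf8 and both probe sets of Fasl, and the median over the 9 ligands was 0.36, with 8 of 9 above 0, beside -0.01 over all probe sets. Across 2 steps, SP3 against SP1 gave 0 calls without the block (0.0111% of all) and 1 lower with it (0.113% of all), again Tnfsf11. At an unadjusted p under 0.05 without the block stood 2 of 14 ligand probe sets and 1349 of all 45037. For SP4 against SP2, 6 of 14 ligand probe sets and 2887 of all 45037 had an unadjusted p under 0.05 without the block. This comparison gave 0 calls without the block (0.557% of all) and 5 with it. Of these, 4 were higher in SP4 (1.84% of all), Tnfsf8, Tnfsf14 and both probe sets of Fasl, and 1 was lower (0.808% of all), Tnfsf11. With the block the count for SP4 against SP3 was 1 without replicate 1 or 2 of SP3 and 0 without all arrays of replicate 1, and that for SP4 against SP2 was 3 without replicate 1 of SP2 or all arrays of replicate 2 and 0 without those of replicate 1. These comparisons share subsets with each other and are not independent.

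**Figure D2:**
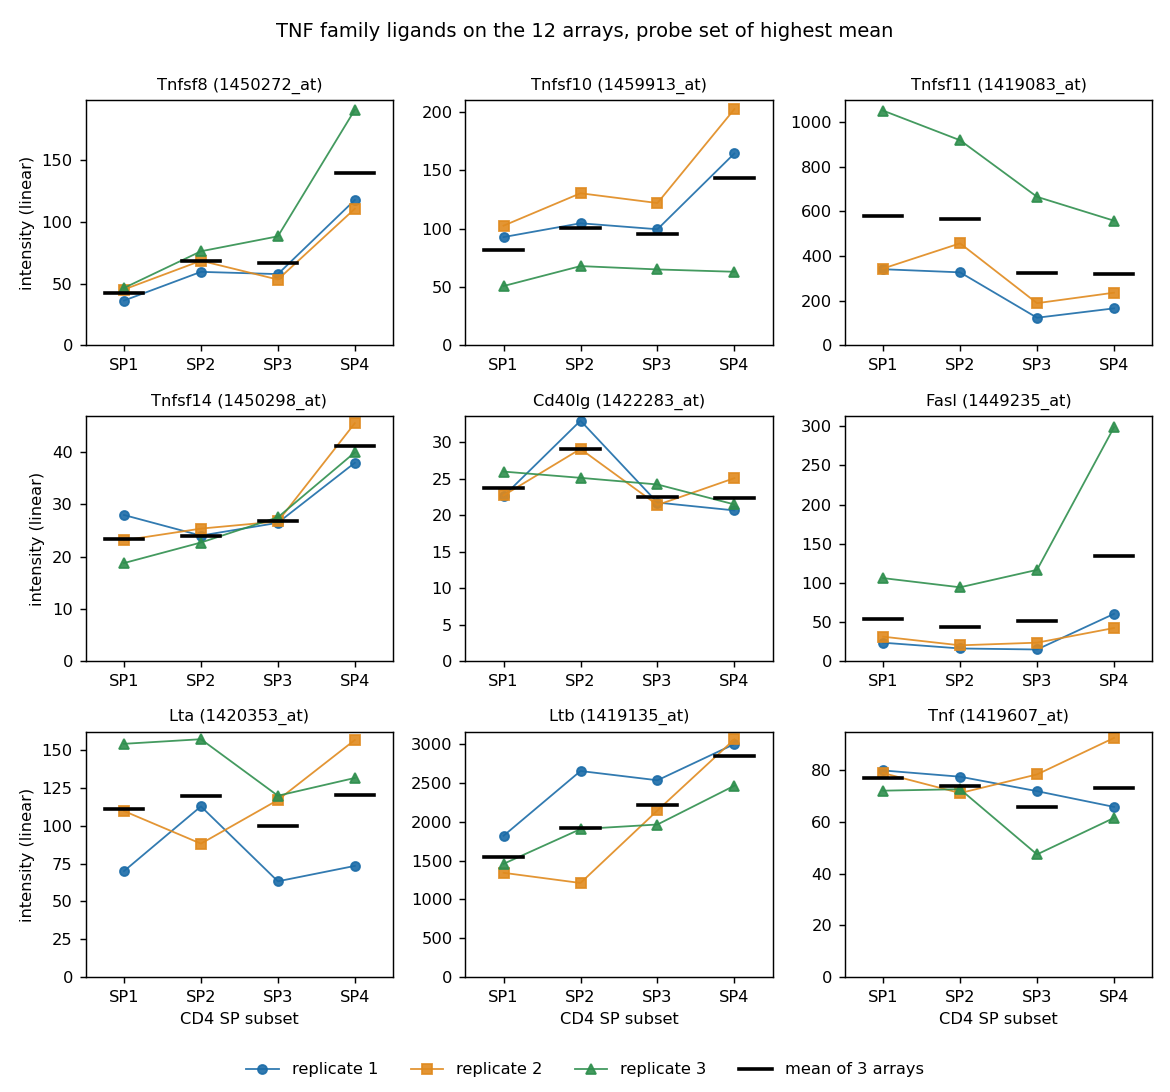
Intensity (linear, each panel from 0 with its own scale) of the 9 ligands by their probe set of highest mean on the 12 arrays, SP1 to SP4 from left to right, with a marker and line for each replicate number and a black bar for the mean of 3 arrays. Tnfsf8, Tnfsf14 and Ltb had every SP4 array above every SP1 array, and how many of all probe sets did so was not counted. Tnfsf11 and Fasl had replicate 3 far above replicates 1 and 2 in all 4 subsets.

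Tnfsf8 encodes CD30 ligand, a costimulatory ligand for CD30 on activated lymphocytes, and it had the largest log2 fold change of the ligands for SP4 against SP1. Its single probe set, 1450272_at, read 36.3, 45.3 and 46.5 in SP1, 59.6, 68.6 and 76.3 in SP2, 57.8, 53.3 and 88.4 in SP3 and 118, 111 and 191 in SP4 (replicates 1, 2 and 3). Every SP4 array lay above every array of the other subsets, every SP2 array lay above every SP1 array, and SP3 overlapped SP2.

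The mean intensity of Tnfsf8 was 140 ± 44.5 in SP4 and 42.7 ± 5.59 in SP1 (SD, n = 3 each), a log2 fold change of 1.38 (SE 0.21, limma adjusted p = 0.00952), and higher in 3 of 3 pairs. Against SP3 it was higher by 0.91, with an adjusted p of 0.244 without and 0.0056 with the block in limma. Against SP2 the log2 fold change was 0.86, at 0.17 without and 0.00355 with the block. For SP2 against SP1 the log2 fold change was 0.52 (95% interval 0.05 to 0.99), which did not pass with the block either (adjusted p = 0.28), and for SP3 against SP2 it was -0.05 (95% interval -0.51 to 0.42). Without the block, leaving out replicate 1 of SP1 gave an adjusted p of 0.0549 for SP4 against SP1, and leaving out all arrays of replicate 1 or of replicate 2 gave 0.346 and 0.286. With the block the call held in every such fit, while that against SP3 was lost without replicate 2 of SP3 (0.0502) and without replicate 1 (0.154).

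Tnfsf14 encodes LIGHT, a ligand for the herpesvirus entry mediator and the lymphotoxin beta receptor that costimulates T cells. Probe set 1450298_at read 28.0, 23.1 and 18.8 in SP1, 24.0, 25.4 and 22.7 in SP2, 26.5, 26.7 and 27.5 in SP3 and 38.0, 45.5 and 40.0 in SP4. SP4 stood above all 9 other arrays, which were themselves all below the median of their array. The log2 fold change was 0.54 for SP4 against SP1 (SE 0.10, limma adjusted p = 0.0244) and 0.51 for SP4 against SP2 (0.052 without and 0.0105 with the block).

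Against SP3 the Tnfsf14 value was 0.41, and it passed neither without (0.28) nor with the block (0.0617). The other Tnfsf14 probe set, 1421588_at, read between 16.9 and 50.1 and gave 0.19 for SP4 against SP1 (adjusted p = 1.0 without and 0.568 with the block in limma), and the mean of both probe sets gave 0.37 (0.334). The call without the block was lost on leaving out replicate 2 or 3 of SP1 or any SP4 array (adjusted p between 0.0533 and 0.106) or all arrays of any number (0.0945 to 0.639). With the block it was lost without replicate 2 (0.062) and without replicate 3 (0.063).

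Fasl encodes Fas ligand, which kills Fas-bearing cells and is used by activated T cells and NK cells. On 1449235_at it read 23.6, 31.3 and 106 in SP1, 16.2, 20.3 and 94.3 in SP2, 14.9, 23.6 and 117 in SP3 and 60.4, 42.3 and 299 in SP4. In each subset replicate 3 was well above replicates 1 and 2, and within each replicate number SP4 was the highest of the 4 subsets.

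On 1418803_a_at Fasl read 42.6, 41.2 and 58.3 in SP1, 35.0, 39.6 and 56.5 in SP2, 31.8, 36.1 and 65.2 in SP3 and 82.4, 63.8 and 98.7 in SP4. Here too SP4 was highest within each number, and only replicate 3 of SP3 overlapped the SP4 range. For SP4 against SP3 the log2 fold changes were 1.04 on 1449235_at (SE 0.74 without and 0.17 with the block) and 0.72 on 1418803_a_at (SE 0.22 and 0.12). Neither passed without the block (limma adjusted p = 1.0 and 0.599) and both passed with it (0.00933 and 0.0109).

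Against SP2 the log2 fold changes of Fasl were 1.15 and 0.71 (0.00225 and 0.00561 with the block in limma, 0.971 and 0.385 without). Against SP1 they were 0.87 and 0.62 (0.00803 and 0.0084 with the block, 0.971 and 0.403 without). The values of SP1, SP2 and SP3 differed by no more than 0.28 in log2 fold change on 1449235_at and passed no test. With the block, the call on 1449235_at against SP3 was lost without replicate 1 of SP3 (0.102), without replicate 1 (0.327) and at an offset of 64 (0.054), and that against SP1 without replicate 1 (0.132) or replicate 3 (0.0925). With all arrays of replicate 3 left out and no block, Fasl on 1449235_at passed for SP4 against SP3 (0.93, adjusted p = 0.0323), as did Tnfsf8 (0.87, 0.0368).

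Tnfsf10 encodes TRAIL, a ligand of death receptors, and has 3 probe sets. On 1439680_at it read 35.0, 36.4 and 39.6 in SP1, 53.0, 45.5 and 53.8 in SP2, 42.5, 61.4 and 54.5 in SP3 and 68.8, 67.6 and 61.2 in SP4. Every SP4 array was above every SP1 and SP2 array on this probe set, and the highest SP3 array lay just above the lowest SP4 array. The log2 fold change for SP4 against SP1 was 0.63 (SE 0.13, limma adjusted p = 0.0436, and 0.00754 with the block).

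On 1459913_at, the Tnfsf10 probe set of highest mean, the arrays read 92.9, 103 and 50.8 in SP1, 105, 130 and 67.9 in SP2, 99.6, 122 and 65.1 in SP3 and 165, 203 and 63.1 in SP4. Replicate 3 was the lowest in each subset and, unlike replicates 1 and 2, was no higher in SP4 than in SP2 or SP3. The log2 fold change for SP4 against SP1 was 0.62 with an adjusted p of 0.851 without and 0.026 with the block in limma, and the third probe set, 1420412_at, gave 0.17 (0.737 and 0.354). The mean of the 3 probe sets gave 0.47 (0.202 without the block). The call on 1439680_at without the block was lost on leaving out any SP1, SP2 or SP4 array or replicate 3 of SP3 (0.0586 to 0.18), any replicate number (0.0672 to 0.764) and at an offset of 64 (0.0537), and with the block only without replicate 1 (0.122). On 1459913_at the block call was lost without any SP1 array, without replicate 1 or 2 of SP4 and without all arrays of replicate 1 or 2 (0.0644 to 0.272).

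**Figure D3:**
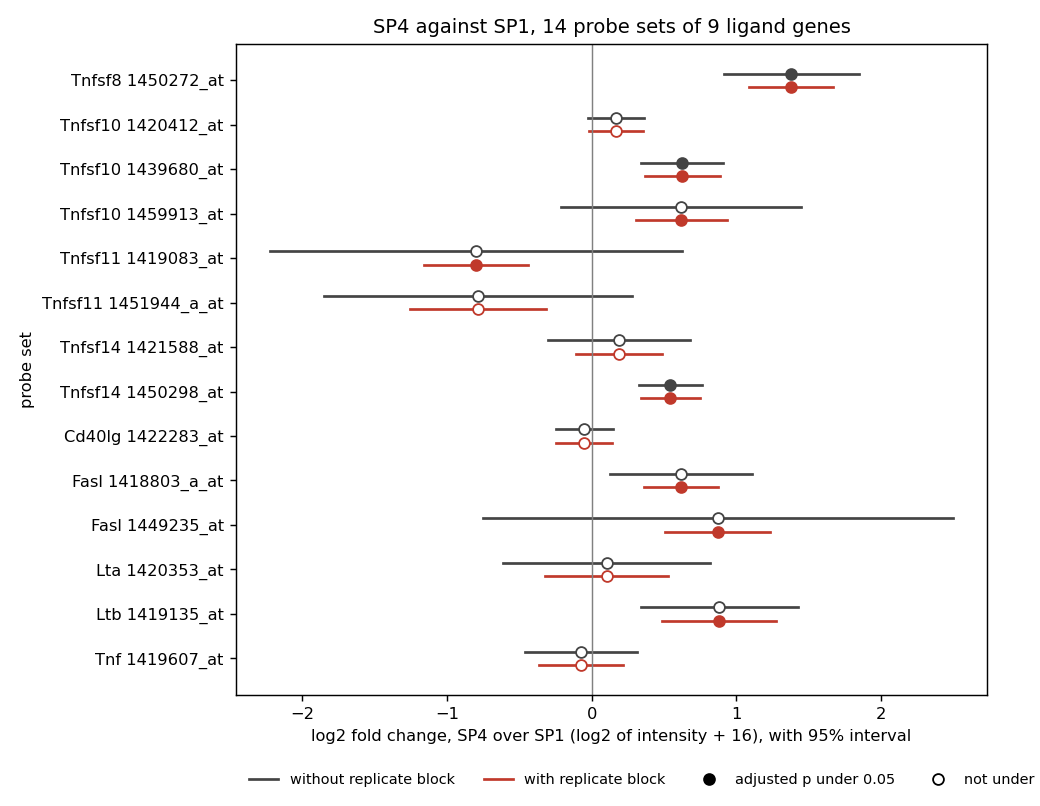
Log2 fold change of SP4 over SP1 with its 95% interval for the 14 ligand probe sets, in grey without and in red with the replicate block, filled where the adjusted p was under 0.05. The intervals of Tnfsf11 and of Fasl 1449235_at, whose replicate 3 stood apart, narrowed most with the block (Fasl from an SE of 0.74 without the block to 0.17 with it).

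Tnfsf11 encodes RANKL, the ligand by which thymocytes act on RANK of medullary epithelial cells, and it was the only ligand called lower in a later subset. On 1419083_at it read 341, 344 and 1052 in SP1, 327, 457 and 919 in SP2, 123, 189 and 666 in SP3 and 165, 236 and 559 in SP4. Within each replicate number SP3 and SP4 were below SP1 and SP2, while across numbers the subsets overlapped because replicate 3 was high throughout. The means were 320 ± 210 in SP4, 326 ± 296 in SP3, 568 ± 311 in SP2 and 579 ± 410 in SP1 (SD, n = 3 each).

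Between the CD69+ subsets the log2 fold change of Tnfsf11 was 0.05 for SP2 against SP1 (95% interval -0.31 to 0.41 with the block), and between the CD69- subsets it was 0.14 for SP4 against SP3 (-0.22 to 0.50). SP3 against SP2 gave -0.99 (SE 0.65 without and 0.17 with the block), with an adjusted p of 1.0 without and 0.0361 with the block in limma, and SP3 against SP1 gave -0.94 (1.0 and 0.0344). SP4 against SP2 gave -0.84 (1.0 and 0.0157) and SP4 against SP1 gave -0.80 (0.962 and 0.0132). The drop at SP3 was seen in 3 of 3 pairs, at -1.30, -1.21 and -0.46.

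The second Tnfsf11 probe set, 1451944_a_at, read 202, 209 and 98.2 in SP1, 205, 304 and 65.5 in SP2, 84.2, 94.1 and 65.0 in SP3 and 110, 135 and 41.6 in SP4. Replicate 3 was the lowest array of each subset here, whereas it was the highest of each subset on 1419083_at, so that the 2 probe sets of this gene disagree on how replicate 3 differs. Their subset differences ran the same way: SP3 against SP2 gave -0.90 (adjusted p = 0.145 with the block in limma), SP3 against SP1 -0.88 (0.15), SP4 against SP2 -0.80 (0.0807) and SP4 against SP1 -0.79 (0.0574). None of these adjusted p-values passed. With all arrays of replicate 3 left out, 1451944_a_at was called for SP3 against SP2 without and with the block, and for SP4 against SP2 with it. With the block it was also called in some other settings, among them SP4 against SP1 at an offset of 1.

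The Tnfsf11 call for SP3 against SP2 on 1419083_at depended on single arrays and settings. With the block it was lost at an offset of 64 (0.0539), without the mean-variance trend (0.116), without replicate 1 of SP1 (0.0642) or replicate 3 of SP4 (0.0646), and without replicates 1 or 2 of SP2 or SP3 (0.131 to 0.23) or all arrays of replicate 1 (0.529) or 2 (0.269). That for SP4 against SP1 was lost without replicate 1 (0.102) or 3 (0.054) of SP1, replicate 3 of SP4 (0.0808), or all arrays of replicate 1 (0.149) or 3 (0.0854). That for SP3 against SP1, the only ligand call of its comparison, gave way to 0 calls without any SP1 array, replicate 1 of SP2, replicate 1 or 2 of SP3, replicate 3 of SP4 or all arrays of any number. That for SP4 against SP2 was lost without replicate 1 or 2 of SP2, replicate 3 of SP4 or all arrays of any number.

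**Figure D4:**
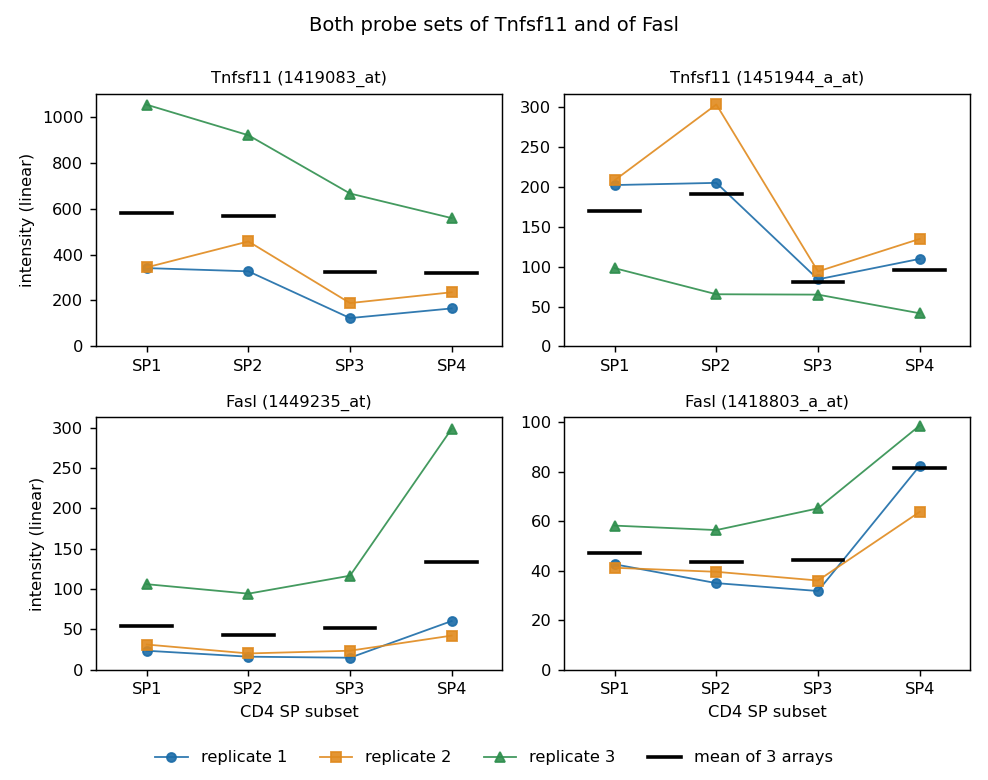
Intensity (linear, each panel from 0) of both probe sets of Tnfsf11 (top) and of Fasl (bottom) on the 12 arrays, SP1 to SP4, with a line for each replicate number and a black bar for the mean of 3 arrays. Replicate 3 (green) was highest on Tnfsf11 1419083_at, at 559 to 1052, and lowest on 1451944_a_at, at 41.6 to 98.2, while both probe sets of Fasl showed their highest values in SP4.

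Ltb encodes lymphotoxin beta, the membrane anchor of the lymphotoxin heterotrimer, and its probe set stood at the 97.3 to 99.2 percentile of the intensities of each array. On 1419135_at it read 1821, 1344 and 1460 in SP1, 2655, 1213 and 1907 in SP2, 2536, 2147 and 1966 in SP3 and 3003, 3064 and 2466 in SP4. The means ordered the subsets SP1, SP2, SP3, SP4, at 1541 ± 249, 1925 ± 722, 2216 ± 291 and 2844 ± 329 (SD, n = 3 each), but neighbouring subsets differed by only 0.26, 0.26 and 0.36 in log2 fold change and passed no test.

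SP4 was above SP1 on every array of Ltb, with a log2 fold change of 0.88 (SE 0.25) that passed with the block and not without it (limma adjusted p = 0.0123 and 0.175). With the block the call was lost without replicate 1 (0.0688) or 2 (0.0589) of SP1, replicate 2 of SP4 (0.0627), or all arrays of replicate 1 (0.0659) or 3 (0.118). Without the block it passed once replicate 2 of SP2 was left out (0.0484) or arrays were weighted by their quality in the fit (0.0454).

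Lta encodes lymphotoxin alpha, the partner of Ltb in that heterotrimer, and passed no test. On 1420353_at Lta read 70.0, 110 and 154 in SP1, 113, 88.2 and 157 in SP2, 63.3, 117 and 120 in SP3 and 73.5, 157 and 132 in SP4. All 4 subsets overlapped, and SP4 against SP1 gave 0.10 (95% interval -0.32 to 0.53 with the block, limma adjusted p = 0.862).

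Tnf encodes tumor necrosis factor, an inflammatory cytokine that lies in the same stretch of chromosome 17 as Lta and Ltb. On 1419607_at it read 79.9, 78.8 and 72.0 in SP1, 77.4, 71.1 and 72.6 in SP2, 71.8, 78.3 and 47.4 in SP3 and 65.8, 92.4 and 61.5 in SP4. The subsets overlapped, and SP4 against SP1 gave -0.07 (95% interval -0.36 to 0.22 with the block, limma adjusted p = 0.857). The difference in response between Ltb and its neighbours Lta and Tnf was not tested.

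Cd40lg encodes CD40 ligand, the helper signal of CD4 T cells to B cells, dendritic cells and medullary epithelium. Its probe set, 1422283_at, was below the array median on 11 of 12 arrays. It read 22.6, 22.7 and 26.0 in SP1, 33.0, 29.1 and 25.1 in SP2, 21.7, 21.4 and 24.2 in SP3 and 20.7, 25.1 and 21.5 in SP4. SP2 was the highest subset, with its lowest array level with the highest of SP4, and log2 fold changes of -0.23 for SP3 against SP2 and -0.23 for SP4 against SP2 did not pass with the block (limma adjusted p = 0.482 and 0.266). At such intensities a change of the transcript may not be readable on this probe set.

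Other members of the ligand family were dim on this array. Of 9 further ligand genes 5 were measured by a probe set of their own, Tnfsf4 (OX40 ligand), Tnfsf9 (4-1BB ligand), Tnfsf13b (BAFF), Cd70 and Eda. Their subset means lay between 10.5 and 29.9, and none passed between SP4 and SP1 by either fit. Their median log2 fold change was -0.05 with 1 of 5 above 0.

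Of the 12 measured receptors of the 9 ligands, 1 was called for SP4 against SP1, with the block only. Tnfrsf1b, the second TNF receptor, averaged 350 ± 205 in SP4 and 230 ± 165 in SP1 (SD, n = 3 each), a log2 fold change of 0.63 (adjusted p = 0.0155 with the block and 0.983 without in limma). It was also higher in SP4 than in SP3, by 0.79 (0.0127 with the block). Fas, the receptor of Fas ligand, averaged 140 in SP4 and 151 in SP1, and Tnfrsf8, the CD30 that binds the Tnfsf8 product, averaged 19.2 in SP4 and 23.2 in SP1, and neither passed.

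Among 13 measured adaptors and regulators downstream of TNF receptors, 1 rose in SP4 against SP1 without the block and 3 with it, and none fell. Traf5, an adaptor of several costimulatory TNF receptors, averaged 193 ± 14.6 in SP4 and 76.7 ± 7.44 in SP1 (SD, n = 3 each), a log2 fold change of 1.17 (limma adjusted p = 0.00236). Traf1, an NF-kB target that pairs with Traf2, had 1.22 (0.000179 with and 0.157 without the block), and Casp8, the initiator caspase of death receptors, 0.51 (0.0357 and 0.843). The 9 measured NF-kB subunits and inhibitors gave no call by either fit, with a median of 0.02.

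Of 13 genes of calcineurin, NFAT and AP-1, 1 rose without the block and 3 with it. Ppp3cc, a catalytic subunit of calcineurin, averaged 121 ± 22.7 in SP4 and 50.3 ± 6.87 in SP1 (SD, n = 3 each), with a log2 fold change of 1.04 (limma adjusted p = 0.0117). Nfatc2 had 1.12 (0.00183 with and 0.136 without the block) and Nfatc1 0.76 (0.00753 and 0.232). Fos and Jun, the subunits of AP-1, gave -0.36 and 0.19 and passed by neither fit.

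Of 12 genes that T cell receptor signalling induces, none passed without the block, and with it 3 rose and 2 fell in SP4 against SP1. Egr3 (0.84, limma adjusted p = 0.0111 with and 0.406 without the block), Irf4 (1.19, 0.0253 and 0.816) and Myc (0.81, 0.0122 and 0.938) rose. Of the nuclear receptors, Nr4a1 (-1.24, limma adjusted p = 0.000221 with and 0.0868 without the block) and Nr4a2 (-1.03, 0.00148 and 0.976) fell. Among 5 genes of ligand shedding, which include the TNF-cleaving protease Adam17, and 5 of cytokine transcript decay, which include Zfp36, no gene passed by either fit.

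Of the marker lists of other cells, those of NKT or innate-like T cells and of activated or memory T cells had higher sums in SP4 than in every other subset. The sums of the other marker lists overlapped between SP4 and SP1. The summed intensity of the 9 measured genes that mark NKT or innate-like T cells was 187 to 470 in SP1, 209 to 355 in SP2, 424 to 562 in SP3 and 1796 to 2509 in SP4. In SP4 against SP1, 7 of 9 rose without the block and 9 of 9 with it, among them Il18r1, a subunit of the IL-18 receptor, at 660 ± 191 in SP4 and 59.7 ± 26.3 in SP1 (SD, n = 3 each). Markers of activated or memory T cells (8 genes) summed to 2475 to 3453 in SP4, 1316 to 1781 in SP3, 1883 to 1946 in SP2 and 1953 to 2213 in SP1. Of these, 1 rose without the block and 5 with it.

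Fas ligand is also made by NK and NKT cells, and the part of such cells in the ligand changes was not tested. NK cell markers (8 genes) summed to 264 to 1733 in SP1, 298 to 664 in SP2, 933 to 1264 in SP3 and 945 to 1117 in SP4. Of these genes none passed without the block in SP4 against SP1 and 2 rose with it, both of cytotoxic granules: Gzmb by 0.94 (limma adjusted p = 0.0406 with and 0.27 without the block) and Nkg7 by 1.18 (0.0495 and 0.249). Gzmb and Nkg7 were also higher with the block in SP4 than in SP2, and Gzmb in SP4 than in SP3. The defining NK receptor gene Ncr1 averaged 11.4 in SP4 and 10.0 in SP1, below the array medians. Of the 9 regulatory T cell markers, 1 rose without the block in SP4 against SP1 and 3 rose and 1 fell with it. Their sum was 3911 to 6466 in SP1, 5286 to 8109 in SP2, 2457 to 4148 in SP3 and 3615 to 6261 in SP4. Their median log2 fold change for SP4 against SP1 was -0.11, with 4 of 9 above 0, while Foxp3 itself averaged 89.1 ± 40.4 in SP4 and 20.4 ± 6.50 in SP1.

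The regulatory T cell sum was lowest in SP3, as were the means of its TNF receptor members Tnfrsf4, Tnfrsf18 and Tnfrsf9, and Tnfsf11 was lower in SP3 than in SP2 as well. In SP3 against SP2 the 9 regulatory markers had a median log2 fold change of -0.84, with 2 of 9 above 0. In SP4 against SP3 their median was 0.54, with 9 of 9 above 0, while Tnfsf11 on 1419083_at gave 0.14. Double positive thymocyte markers (9 genes) summed to 3138 to 9926 in SP1, 2114 to 4076 in SP2, 3459 to 14640 in SP3 and 1543 to 4008 in SP4. In SP3 against SP2, 2 of these 9 genes, Cd8a and Cd8b1, were higher with the block, against 0.0888% of all probe sets. Ccr9, a chemokine receptor of cortical thymocytes, was lower in SP4 than in SP3, SP2 and SP1 without and with the block (-1.92, -1.98 and -2.47 in log2 fold change), and Cd8a was lower in SP4 than in SP3 with the block (-1.90). The median of the 9 genes was -1.49 for SP4 against SP3, with 0 above 0, and -0.63 against SP1, with 1 above 0. Against SP2 most went the other way, with a median of 0.89 and 7 of 9 above 0. Whether double positive or regulatory cells had a part in the Tnfsf11 values was not tested. Sums over the other lists stayed at 137 to 523 for 6 B cell markers, 488 to 1554 for 9 myeloid and dendritic markers, 164 to 241 for 6 thymic epithelial markers, 120 to 294 for 2 gamma-delta T cell markers and 15.7 to 23.3 for 2 erythroid markers, with 1 call between SP4 and SP1 in these lists, a myeloid and dendritic marker with the block.

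**Figure D5:**
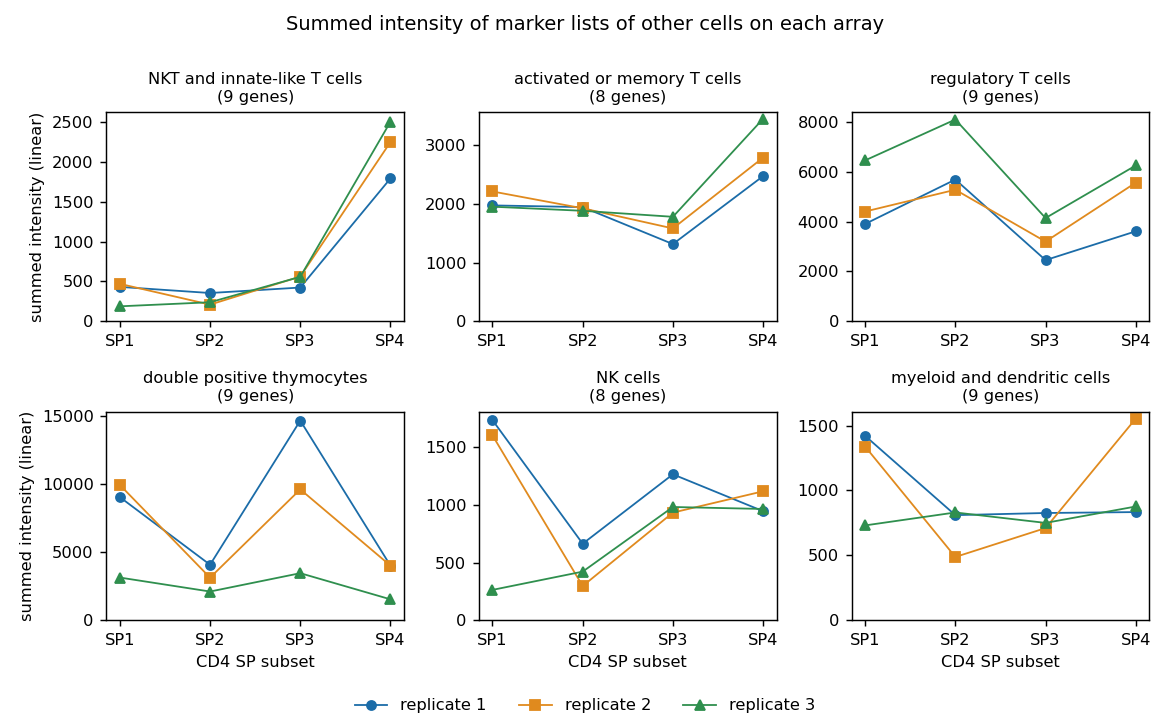
Summed intensity (linear, each panel from 0) of 6 marker lists on the 12 arrays, SP1 to SP4, with a line for each replicate number. The NKT and innate-like list stood at 1796 to 2509 in SP4 and at no more than 562 in the other subsets, and the double positive list was highest in SP3 for replicates 1 and 3 and in SP1 for replicate 2.

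The genes whose profile was most like that of each called ligand were found by Pearson correlation of log2 values over the 12 arrays, among 7183 genes with a mean intensity over 100. All arrays of a number share whatever set that number apart, so the correlation after removal of the mean of each number is given as well. Tnfsf8 was most like Ptpn22, a phosphatase that restrains T cell receptor signalling (r = 0.98, and 0.98 after removal), then Mctp2 (0.95 and 0.95) and Acss2 (0.94 and 0.93). Tnfsf11 was most like Alkbh1 (0.97 and 0.95), the receptor-induced nuclear receptor Nr4a3 (0.96 and 0.94) and Tgif2 (0.96 and 0.89).

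Fasl was most like Lncpint (0.97 and 0.91), Gbf1 (0.96 and 0.84) and Sema4d (0.95 and 0.86), and Tnfsf10 like Sting1 (0.97 and 0.90), B4galnt1 (0.96 and 0.86) and St6galnac3 (0.96 and 0.87). For these the likeness was smaller once the numbers were taken out. Tnfsf14 was most like Gm2a (0.96 and 0.96), the interferon-induced Oas1a (0.96 and 0.97) and Ncf4 (0.95 and 0.95). Ltb was most like Irf7, an interferon response factor (0.91 and 0.96), and the lymphocyte GTPases Gimap1 (0.91 and 0.95) and Gimap3 (0.88 and 0.95). These are descriptions over 12 arrays, and no shared function or control is implied.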

How the data were processed

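Gene expression was measured on 12 Affymetrix arrays, 3 for each of the subsets SP1 to SP4. The authors deposited linear intensity values per probe set, after background correction and between-array normalization of their own. Their methods name RMA in R Bioconductor and the submitters' notes name MAS5, with versions not given in the sources used here. The raw scans were not used, and precision is limited by there being 3 arrays per subset.

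The annotation gives 34945 probe sets to 1 gene, 932 to several and 9160 to none here. Where 1 value per gene was needed, the probe set with the highest mean served. An offset of 16 was added before log2, and limma 3.58.1 (R 4.3.3) estimated a mean for each subset from the 12 arrays together (eBayes with a mean-variance trend, 8 residual degrees of freedom). P-values were adjusted over all 45037 probe sets within each of 6 comparisons, and a call was made at an adjusted p under 0.05. The study's own unpaired test with a fold threshold was not repeated. The fit without the replicate block was tested on simulated data whose noise was independent between arrays, unlike that of the same-numbered arrays here. The fit with the block was not simulated.

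The labels call the arrays biological replicates 1 to 3. Same-numbered arrays deviated together, with 18 correlations between 0.279 and 0.883, and the first principal component held 56.8% of the variance. The study labels its 3 array repeats by codes that all subsets have in common. That the replicate numbers follow these repeats is not stated and was assumed. A second fit took the number as a block (6 residual degrees of freedom). Alternatives changed the offset, normalization, filter, trend, array weights, subsets in the fit, fold and arrays left out. Those applied to the second fit were chosen after seeing the data.

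The ligands and the other 19 lists were chosen with earlier results of these data known. The study itself names Tnfsf8 from these arrays, so its rise is not independent evidence. All ligand probe sets are reported, and of the other lists, at most 3 called genes per direction and comparison. Genes named beside these to describe a list were chosen after their values were seen. Promoter windows came from RefSeq on GRCm38.p6 and were searched on both strands.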

Additional observations from a re-analysis of the deposited data

How the results depend on the processing

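The number of ligand probe sets called depended on the replicate number, on a fold threshold and on the arrays left out. Without the replicate block the counts for SP4 against SP1, SP4 against SP2, SP4 against SP3, SP3 against SP1 and SP3 against SP2 were 3, 0, 0, 0 and 0, and with the replicate block as a pairing they were 8, 5, 3, 1 and 1. SP2 against SP1 stayed at 0 in every alternative.

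Without the block, the count for SP4 against SP1 was 0 with only these 2 subsets in the fit and 1 with a fold over 2 required, and leaving out arrays gave 0 to 3. For SP4 against SP2 it was 1 at an offset of 64, 1 after quantile normalization, 1 without the trend and 2 with array weights, and leaving out arrays gave 0 to 2. Leaving out arrays gave 0 to 3 for SP4 against SP3 and 0 to 1 for SP3 against SP2.

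With the block, a fold over 2 left 1 call for SP4 against SP1, SP4 against SP2 and SP4 against SP3, and 0 for SP3 against SP2 and SP3 against SP1. The last of these was also 0 after quantile normalization and without the trend, and SP3 against SP2 was 0 at an offset of 64 and without the trend. Leaving out arrays gave 2 to 9 for SP4 against SP1, 0 to 6 for SP4 against SP2, 0 to 4 for SP4 against SP3, 0 to 3 for SP3 against SP1 and 0 to 2 for SP3 against SP2. The causes were not tested.

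Of the ligands followed by their probe set of highest mean for SP4 against SP1, none of the 6 called without or with the block changed direction, but without the block some sizes moved widely on leaving out 1 array. Fasl on 1449235_at gave 0.13 without replicate 3 of SP4 and 1.37 without replicate 3 of SP1, Tnfsf11 on 1419083_at gave -0.27 without replicate 3 of SP1 and -1.27 without replicate 3 of SP4, and Tnfsf10 on 1459913_at gave 0.33 without replicate 2 of SP4 and 1.06 without replicate 3 of SP4. With the block all array leave-outs gave 0.63 to 1.16 for Fasl, -0.94 to -0.68 for Tnfsf11 and 0.49 to 0.83 for Tnfsf10. The near-zero log2 fold changes of SP4 against SP1 changed sign for Cd40lg (0.00881 with array weights, -0.12 to 0.00545 on leaving out arrays), Lta (-0.15 to 0.38 on leaving out arrays) and Tnf (0.012 with array weights, -0.22 to 0.0203 on leaving out arrays). With the block the ranges on leaving out arrays were -0.12 to 0.00545 for Cd40lg, -0.10 to 0.26 for Lta and -0.21 to 0.0197 for Tnf.

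With 3 arrays per subset, and Cd40lg and Tnfsf14 near or below the array median, small changes of these transcripts could not be read. With only 2 subsets compared, Tnfsf8, Tnfsf14 and Tnfsf10 on 1439680_at had adjusted p of 0.0828, 0.232 and 0.167 by limma.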
